A study of Mus musculus with 6 samples.

Results

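The cytosolic ribosomal protein genes of the mouse kidney were followed from a standard diet to an adenine-enriched diet. The members are the 86 rows, of 40993 in the table, whose symbol is Rpl or Rps with a number and at most 1 suffix letter and digit, or Rplp0 to Rplp2. Rows with -ps in the symbol and the Rps6 kinases were left out by this rule. GENCODE M21 types 81 of the members as protein coding and 4 as processed pseudogenes (Rps3a2, Rps3a3, Rps12l1 and Rps12l2, of which Rps3a2 was tested), and Rps4l as a processed transcript. Of the members, 50 belong to the large subunit and 36 to the small subunit, and 81 reached a mean of 0.5 FPKM, the fragments on a gene scaled for its length and for the depth of the library, and were tested. The 5 others were near the detection limit: Rpl10l, Rps12l1 and Rps12l2 were listed at 0 in all 6 libraries, Rpl39l had a mean of 0.06 FPKM and Rps3a3 of 0.17 FPKM. Rpl13 was not analysed here.

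RNA was sequenced from whole kidneys of 2-month-old C57BL/6 mice, 3 on the standard diet and 3 on the adenine-enriched diet. Neither group carries a named allele or other agent, and the sources used here state neither the adenine dose nor the length of feeding. The labels do not say that each library is a separate animal, so p-values measure the spread between these libraries. Feeding adenine is an established way to produce kidney disease in rodents, because a metabolite of adenine crystallises in the renal tubules.

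The ribosome joins a small subunit, which holds the mRNA and decodes it, to a large subunit, which forms the peptide bonds. Most ribosomal proteins are needed in about equal number per ribosome. The mRNAs of nearly all ribosomal proteins begin with a run of pyrimidines, the 5′ terminal oligopyrimidine (TOP) tract. Through this tract growth signalling by mTOR controls the translation of these mRNAs. mRNA abundance, the quantity measured here, does not show that translational control.

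The ribosomal protein mRNAs were abundant and differed little between the diets on the deposited scale. The median level of the tested members was 315 FPKM, against 10.4 FPKM over all genes tested, and 72 members lay at 100 FPKM or more. Mean FPKM on adenine was within 1.2-fold of the standard diet for 61 of the 81, at least 1.2-fold higher for 16 and at least 1.2-fold lower for 4. In limma, with Benjamini-Hochberg adjustment over all 15431 genes tested, 4 members rose (Rpl12, Rplp0, Rpl10a and Rps2) and 2 fell (Rpl3l and Rps27l). These 6 are 7.41% of the members, whereas 36.5% of all genes tested passed the same threshold, 29.7% higher and 6.84% lower. The other 75 members had log2 changes from -0.29 to 0.43 with a median standard error of 0.14, and missing the threshold does not show that they were equal on both diets.

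The median log2 change was 0.06 over the members and 0.25 over all genes tested, and 64 of the 81 members lay below the latter. All 3 adenine libraries lay above all 3 standard libraries for 17 members (21% of them, against 44.4% of all genes tested) and below them for 6 (7.41%, against 11.8%). No direction can be given for the family as a whole: under median-of-ratios rescaling, which brings the median of all genes from 0.25 to 0.00, the members' median was -0.24 with 1 call higher and 11 lower, whereas under quantile normalization it was 0.20, against -0.08 over all genes, with 11 higher and 1 lower. The corresponding backgrounds over all genes were 16.8% higher and 15.2% lower under the rescaling (32.0% in all) and 13.9% and 14.5% under quantile normalization (28.4% in all). With the FPKM scaled so that the members themselves had no median change, 1 member was called higher and 1 lower, against 22% and 4.64% of all genes (26.7% in all). With the replicate number as a block, 4 were called higher and 2 lower, against 31.3% and 7.34% of all genes (38.6% in all). Calls past the threshold over all genes were 81.3% higher in the reported fit, 52.6% under the rescaling and 48.9% under quantile normalization. Rpl12, higher, and Rpl3l, lower, were called under every scaling tried.

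**Figure D1:**
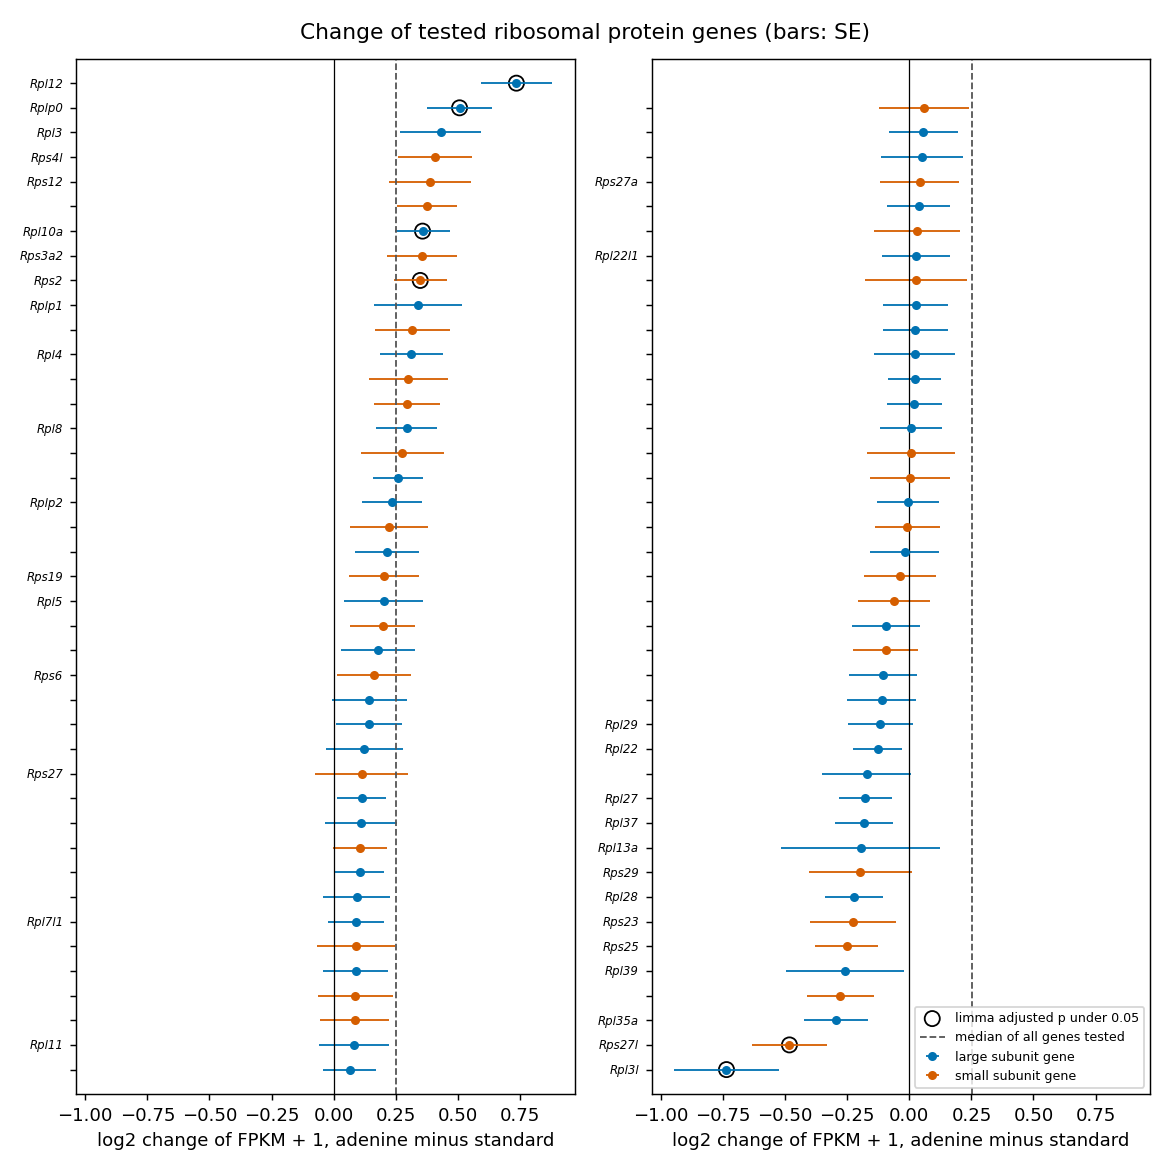
Log2 change of FPKM + 1 (x axis) for each of the 81 tested members, ranked from the highest at the top left to the lowest at the bottom right, with standard errors. Most tested members named in the text are labelled (Rpl24 and Rps3a1 are not). Ringed points are the 6 members past the threshold, and most points lie left of the dashed line at the all-gene median of 0.25.

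Libraries differed within the adenine group. The summed FPKM of the members was 27965, 27246 and 28474 in standard 1 to 3, and 33521, 27252 and 26698 in adenine 1 to 3. Only adenine 1 stood above the standard libraries, and it held the highest value of the 6 libraries for 61 of the 81 members. The median log2 deviation of the members from their 6-library mean was 0.24 in adenine 1, -0.06 in adenine 2 and -0.06 in adenine 3, while that of all genes was 0.21, 0.12 and 0.05. Adenine 2 and 3 thus lay within the range of the standard libraries for the members (-0.09 to 0.00) and above it for all genes (-0.19 to -0.08). Without adenine 1 the members' median log2 change was -0.05, with 2 calls higher (Rpl12 and Rplp0) and none lower, against 23.8% of all genes called.

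**Figure D2:**
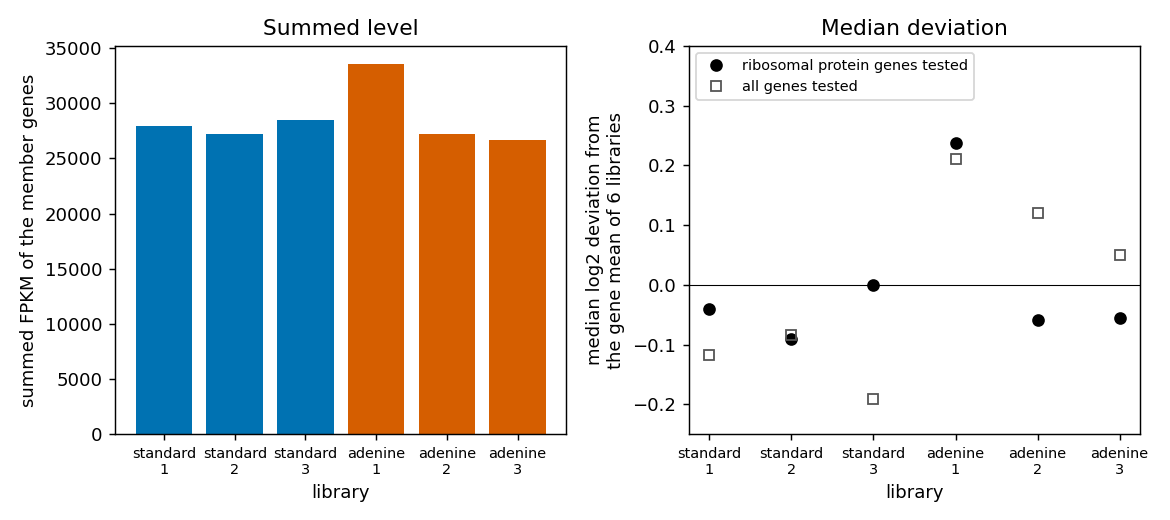
Left, summed FPKM of the member genes in each of the 6 libraries, highest in adenine 1 at 33521. Right, the median log2 deviation from the gene's own mean in each library, for the tested members (filled circles) and all genes tested (open squares).

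Depth, estimated from the steps of low FPKM values, was 17300000 to 20200000 fragments in the standard libraries and 17500000 to 23500000 fragments in the adenine libraries, so that 3 fragments on a 2 kb transcript correspond to 0.0638 to 0.0867 FPKM. These limits cover counting error only. Markers of other cells moved with the diet: 12 of 15 tested leukocyte markers rose (summed FPKM 144 to 179 on standard, 843 to 2034 on adenine), as did 10 of 10 fibroblast markers (154 to 206, against 793 to 1483) and 10 of 10 proliferation markers (40.3 to 44.7, against 73.4 to 150). Of 10 kidney epithelium markers, 4 fell, among them Slc5a2 and Slc12a1, and 2 rose, among them Nphs1 of the podocyte, and their sums overlapped (4624 to 5340 on standard, 3929 to 5212 on adenine). Under quantile normalization 1 of these 10 fell and 1 rose. None of 5 tested red cell markers was called by limma (0 at an unadjusted p under 0.05). Of 7 tested genes that respond to tissue handling, 5 rose and 2 had negative log2 changes. The summed FPKM of the handling list overlapped (69.0 to 257 on standard, 163 to 208 on adenine) and was highest in standard 3. No marker on these lists was at 0 in all libraries. In the reported fit, 29.7% of all genes tested were called higher and 6.84% lower. The part of these cells in the ribosomal protein changes was not tested. In whole kidneys, fewer cells of a type and less RNA per cell cannot be told apart.

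The lowest adjusted p-values among the members belonged to genes of the stalk, the flexible arm of the large subunit on which translation factors are recruited and activated. Of its 4 members, 2 rose and all 4 had positive values, with a median log2 change of 0.42. Over all genes tested, 29.7% were called higher and 11024 of 15431 had positive values. Under median-of-ratios rescaling Rplp2 had a value of -0.06 and only Rpl12 was called.

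Rpl12 encodes uL11, the protein at the base of the stalk. It lies at chr2:32961559-32964496 on the plus strand in the deposited annotation (mm10/GRCm38). It measured 106, 94.6 and 91.2 FPKM in standard 1 to 3 and 197, 154 and 141 FPKM in adenine 1 to 3. Every adenine library was above every standard library. Mean FPKM was 1.69-fold higher, with a log2 change of 0.74 ± 0.14 (SE, n = 3 and 3; limma adjusted p = 0.0129). It was the only member called in every alternative fit, including each with 1 library left out, where the largest adjusted p was 0.0485. Of its transcript's 100-base stretches, 46.8% occur in another annotated transcript, chiefly that of the pseudogene Gm10275, which was listed at 2.00 FPKM on standard and 4.68 on adenine. Rpl12 also overlaps Lrsam1, on the opposite strand, with a mean of 7.49 FPKM.

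Rplp0 encodes uL10, which binds the base of the stalk and carries the P1 and P2 proteins. It lies at chr5:115559467-115563727 on the plus strand. Its level was 360, 358 and 386 FPKM on standard and 592, 498 and 485 FPKM on adenine. The groups did not overlap. Mean FPKM was 1.43-fold higher, with a log2 change of 0.51 ± 0.13 (SE; limma adjusted p = 0.0272). The call ended under median-of-ratios rescaling (0.21, limma adjusted p = 0.291), under scaling to the members themselves (limma adjusted p = 0.0660), and without any 1 of standard 1, standard 2, standard 3 and adenine 2 (limma adjusted p from 0.0720 to 0.0954).

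Rplp1 and Rplp2 encode P1 and P2, the acidic proteins that form the mobile tip. Rplp1 measured 761, 727 and 765 FPKM on standard and 1137, 907 and 833 FPKM on adenine. Its groups did not overlap, but the adenine libraries were spread widely, and the log2 change of 0.34 ± 0.18 was not called (limma adjusted p = 0.168). Rplp2 measured 108, 89.0 and 95.7 FPKM on standard and 123, 100 and 122 FPKM on adenine. Adenine 2 lay below standard 1, and the log2 change was 0.24 ± 0.12 (limma adjusted p = 0.162).

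**Figure D3:**
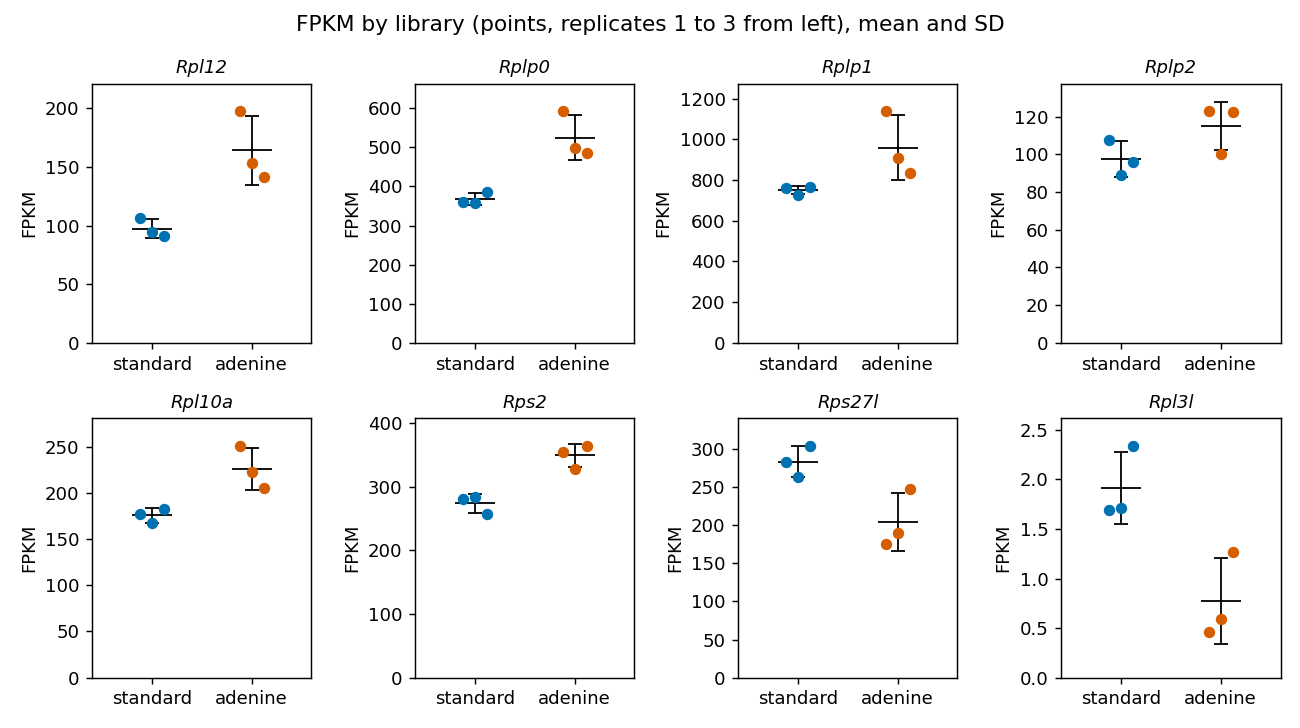
FPKM on linear axes from 0 in each library for the 4 stalk genes and the other 4 called members, with group mean and SD (n = 3 libraries each). Rplp2 is the only one of the 8 in which the diets overlap.

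Rpl10a, which encodes uL1, the protein of the other mobile arm of the large subunit, at the exit of the tRNAs, also rose. It lies at chr17:28328471-28331032 on the plus strand, and measured 177, 167 and 183 FPKM on standard and 251, 222 and 205 FPKM on adenine. All adenine libraries lay higher. The log2 change was 0.36 ± 0.11 (SE; limma adjusted p = 0.0436). The call ended in several fits: in limma the adjusted p was 0.0616 with the replicate number as a block, 0.0579 with no filter, 0.0526 with the robust variance prior, 0.0623 when the 50 most abundant genes were left out of the scaling and 0.136 under scaling to the members. Under median-of-ratios rescaling it was 0.711 with a log2 change of 0.06, and without any 1 library other than adenine 3 it was 0.0909 to 0.135. A copy, Rpl10a-ps1, shares most of its sequence (75.9% of Rpl10a's 100-base stretches occur elsewhere) and had 43.7 FPKM on standard and 51.3 on adenine. The sum of both rows was 1.26-fold higher on adenine.

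Rps2 was the one small subunit member that rose. It encodes uS5, near the entry of the mRNA channel, and lies at chr17:24718116-24721929 on the plus strand. Its level was 281, 285 and 257 FPKM on standard and 356, 329 and 364 FPKM on adenine, without overlap. The log2 change was 0.35 ± 0.11 (SE; limma adjusted p = 0.0438). The call was at the threshold: it ended with the replicate block (limma adjusted p = 0.0717), in the same 4 other fits as Rpl10a (limma adjusted p from 0.0518 to 0.241), under median-of-ratios rescaling (0.05, limma adjusted p = 0.779) and without any 1 of the 6 libraries (limma adjusted p from 0.0504 to 0.140). Of its 100-base stretches, 58.5% occur in other transcripts.

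The members called lower were both paralogues, second genes for a ribosomal protein that also has a main gene. Rpl3l encodes a relative of uL3 known from heart and skeletal muscle. It lies at chr17:24727820-24736143 on the plus strand, the same chromosome and strand as Rps2, and measured 1.69, 1.71 and 2.33 FPKM on standard and 0.46, 0.60 and 1.27 FPKM on adenine. The groups did not overlap at this low level. The log2 change was -0.74 ± 0.21 (SE; limma adjusted p = 0.0363), and none of its 100-base stretches is shared. The call ended with no filter on low values (limma adjusted p = 0.0535) and without any 1 library other than adenine 3 (limma adjusted p from 0.0769 to 0.117). Of 7 muscle genes, chosen after the Rpl3l values were seen, Ckm, Myh1, Myh4 and Tnnt3 were listed at 0 in every standard library. The 7 summed to 0.51 to 0.89 FPKM on standard, mostly Actn3 (0.69, 0.66 and 0.46 FPKM), and to 0.62 to 2.42 FPKM on adenine. The source of the Rpl3l mRNA was not tested.

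Rps27l encodes eS27-like, a close relative of eS27 known as a target of p53. It lies at chr9:66946086-66949516 on the plus strand. It measured 282, 263 and 304 FPKM on standard and 176, 190 and 247 FPKM on adenine. Adenine 3 came nearest to the standard libraries, without reaching them. The log2 change was -0.48 ± 0.15 (SE; limma adjusted p = 0.0475), and no 100-base stretch is shared. The call ended under quantile normalization (-0.32, limma adjusted p = 0.123), under scaling to the members (limma adjusted p = 0.0855), with no variance trend (limma adjusted p = 0.0513), with no filter (limma adjusted p = 0.0716) and without any 1 library other than adenine 3 (limma adjusted p from 0.0897 to 0.15).

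The starts of 6 genes are printed to show the pyrimidine runs of the called members beside that of Rps6, the phosphorylated small subunit protein eS6, which was not called (log2 change 0.16, limma adjusted p = 0.403). Each runs 5′ to 3′ from 40 bases before the annotated start to 20 bases after it, from RefSeq (GRCm38.p6), with the longest run of C or T within 20 bases of the start in capitals.
Rpl12, chr2:32961672-32961731, plus strand: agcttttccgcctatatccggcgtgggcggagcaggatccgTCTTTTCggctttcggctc
Rplp0, chr5:115559427-115559486, plus strand: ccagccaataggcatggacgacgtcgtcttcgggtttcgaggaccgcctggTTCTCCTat
Rpl10a, chr17:28328431-28328490, plus strand: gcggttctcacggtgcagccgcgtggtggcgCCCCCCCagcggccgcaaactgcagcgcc
Rps27l, chr9:66946046-66946105, plus strand: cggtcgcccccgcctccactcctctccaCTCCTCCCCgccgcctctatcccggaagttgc
Rpl3l, chr17:24727786-24727845, plus strand: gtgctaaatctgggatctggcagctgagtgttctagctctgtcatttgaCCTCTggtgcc
Rps6, chr4:86857348-86857407, minus strand: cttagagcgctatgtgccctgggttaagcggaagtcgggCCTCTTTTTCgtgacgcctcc

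The runs are 7 bases in Rpl12, Rplp0 and Rpl10a, 9 in Rps27l, 5 in Rpl3l and 10 in Rps6. Relative to the start base, the runs begin at 1 in Rpl12, 11 in Rplp0, 9 in Rpl3l and -1 in Rps6. They begin at -9 in Rpl10a and -12 in Rps27l, where the whole run lies before the annotated start and outside the annotated transcript. The RefSeq start of Rpl12 lies 153 bases from the deposited start, and that of Rps2 lies 1947 bases from it, so no Rps2 sequence is printed. Over the 61 members with an entry in the RefSeq table, 55.7% had a run of at least 7 pyrimidines within 20 bases of the start. The share was 24.3% over all 32851 promoters. Runs wholly before the start were counted too, so such a run need not be a TOP tract. Among tested members the median log2 change was 0.08 for the 33 with such a run and 0.03 for the 26 without. In the window from 250 bases before to 50 after the start, on both strands, the ETS core CCGGAAG was found in 39.3% of the members (8.86% of all promoters), the GC box GGGCGG in 59.0% (35.7%), the E-box CACGTG in 8.2% (7.15%) and the YY1 core ATGGCGG in 16.4% (4.05%). Each match is a match of letters only.

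Among the members that were not called, the highest log2 change was that of Rpl3, which encodes uL3, near the peptidyl transferase centre. It measured 243, 268 and 241 FPKM on standard and 423, 317 and 287 FPKM on adenine, without overlap (log2 change 0.43 ± 0.16, limma adjusted p = 0.0801). Rps12, which encodes eS12 of the small subunit beak, measured 555, 522 and 556 FPKM on standard and 860, 643 and 650 FPKM on adenine, again without overlap (log2 change 0.39 ± 0.16, limma adjusted p = 0.107). Rpl3 and Rps12 were called under quantile normalization, and Rpl3 without adenine 3. Rps4l (0.41, limma adjusted p = 0.0707) and Rps3a2 (0.36, limma adjusted p = 0.0906) are low-level relatives of main genes. Rps3a2 shares 78.6% of its 100-base stretches with other transcripts, chiefly Rps3a1, and was called with the replicate block (limma adjusted p = 0.0356).

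At the other end of the members that were not called, Rpl35a, which encodes eL33, measured 580, 584 and 578 FPKM on standard and 490, 429 and 505 FPKM on adenine. Every adenine library lay lower, and the log2 change was -0.29 ± 0.13 (limma adjusted p = 0.112). Rps25 (-0.25) and Rpl28 (-0.22) were likewise below all standard libraries. Under median-of-ratios rescaling the 11 lower calls included Rpl22, Rpl27, Rpl28, Rpl29, Rpl35a, Rpl37, Rpl3l, Rps23, Rps25 and Rps27l.

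In several members the adenine libraries lay on both sides of the standard ones. Rpl13a, which encodes uL13 and had the highest mean level of all members, measured 1261, 1250 and 1129 FPKM on standard and 1626, 1034 and 705 FPKM on adenine. Adenine 1 was above and adenine 2 and 3 were below every standard library, and its log2 change of -0.19 had the widest standard error of the members, 0.32. Rps29, a small zinc-binding protein, showed the same arrangement, with 674, 657 and 662 FPKM on standard and 731, 605 and 439 FPKM on adenine (-0.20, limma adjusted p = 0.468). Rpl39, which encodes eL39 of the exit tunnel, measured 189, 161 and 154 FPKM on standard and 193, 141 and 100 FPKM on adenine (-0.26, limma adjusted p = 0.405), and Rps23, in the decoding centre, 413, 457 and 445 FPKM against 466, 368 and 306 FPKM (-0.23, limma adjusted p = 0.331). In both, adenine 1 was the highest and adenine 3 the lowest of the 6 libraries.

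By role, none of the 9 proteins around the nascent chain exit tunnel was called by limma. Their median log2 change was 0.04, and 1, Rpl4, had an unadjusted p under 0.05. Of 7 at the mRNA channel and decoding site, 1 was called, Rps2. In the same fit 36.5% of all genes tested were called and 49.5% had an unadjusted p under 0.05. Rpl5 and Rpl11 form the 5S particle with 5S rRNA, which binds and inhibits Mdm2 when ribosome assembly is disturbed. Rpl5 measured 269, 272 and 284 FPKM on standard and 386, 312 and 262 FPKM on adenine, with overlap (0.20, limma adjusted p = 0.337). Rpl11 measured 163, 137 and 155 FPKM on standard and 192, 144 and 148 FPKM on adenine, also with overlap (0.08, limma adjusted p = 0.657). None of the 19 genes mutated in Diamond-Blackfan anaemia was called by limma, and 0 had an unadjusted p under 0.05. All 19 lay below the all-gene median, with a median of 0.03, as did 64 of all 81 tested members. This position turned with scaling: under quantile normalization the list's median was 0.14, against -0.08 over all genes. Rps19, 1 of the 19, measured 152, 142 and 167 FPKM on standard and 211, 171 and 152 FPKM on adenine (0.20, limma adjusted p = 0.289). Rps27a, which encodes ubiquitin fused to eS31, had a log2 change of 0.04 (limma adjusted p = 0.846).

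Ratios between a paralogue and its main gene within a library do not change when that library is scaled by 1 common factor. Quantile normalization can change them. Rps27l held 24.7%, 25.6% and 22.4% of the summed FPKM of Rps27 and Rps27l on standard, and 14.5%, 17.1% and 21.2% on adenine. The groups did not overlap (24.3% ± 1.66 against 17.6% ± 3.38, SD, n = 3 each; exact two-sided permutation p = 0.10, the smallest possible with 3 against 3; Benjamini-Hochberg 0.25 over 5 pairs). Rpl3l held 0.69%, 0.64% and 0.96% of its pair with Rpl3 on standard and 0.11%, 0.19% and 0.44% on adenine, also without overlap (exact permutation p = 0.10, Benjamini-Hochberg 0.25). The shares of Rpl7l1 (7.01% ± 0.93 and 6.66% ± 1.09), Rpl22l1 (23.8% ± 3.01 and 25.7% ± 0.45) and Rps4l (2.63% ± 0.54 and 2.93% ± 0.48) overlapped, with exact permutation p of 0.70, 0.40 and 0.50. Rps27 itself shares 57.9% of its stretches with other rows, chiefly Rps27rt, which was listed at 1167 FPKM on standard and 1321 on adenine.

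Log2 changes were higher in members encoding larger proteins. The 27 members of 194 to 419 residues had a median of 0.20 with 25 above 0, the 24 members of 136 to 192 residues a median of 0.02, and the 28 members of 46 to 135 residues a median of 0.01 with 14 above and 14 below 0. Under median-of-ratios rescaling these medians were -0.10, -0.27 and -0.29. Across the 79 tested members with an annotated protein, log2 change and log10 of protein length had a Pearson r of 0.38 and a Spearman rho of 0.49. Genes share the same 6 libraries and are not independent. With 1 library left out at a time, r ran from 0.34 to 0.40. With transcript length in place of protein length r was 0.23, and over all 13696 tested protein-coding genes it was 0.11. In the 18 such members with under 10% of shared stretches, r was 0.11 and rho 0.30.

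**Figure D4:**
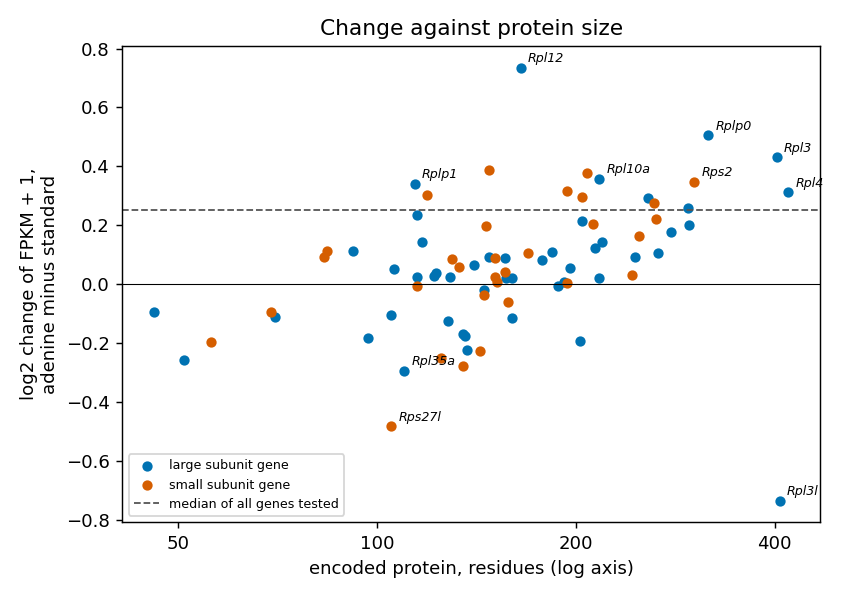
Log2 change of FPKM + 1 against the length of the encoded protein (log axis) for 79 tested members, coloured by subunit. Of the 27 largest, 25 lie above 0, and Rpl3l at the lower right is one of the exceptions.

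Sequence sharing limits many members. The median member shared 30% of its 100-base stretches with other annotated transcripts, 22 shared at least 50% and 6 none. Rpl24 shared 80.1%, chiefly with Gm28037, an overlapping row on the same strand that measured 138 FPKM on standard and 40.8 on adenine. Rpl24 itself had 220 and 223 FPKM, but both rows summed to 358 ± 12.7 (SD) on standard and 264 ± 32.1 on adenine. How fragments were divided between both rows was not tested. Among the 19 tested members sharing under 10%, none rose by limma (3 higher values, those of Rpl4, Rpl8 and Rps4l, had an unadjusted p under 0.05) and 2 fell, Rpl3l and Rps27l. Their median log2 change was 0.08. Over all genes 29.7% were called higher and 6.84% lower. The 4 members that rose were among the other 62, but under quantile normalization 3 of the 19 rose and 1 fell. Small nucleolar RNAs, which guide rRNA modification, lie within 28 tested members, and these hosts had a median log2 change of 0.12, against 0.04 in the other 53.

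Some ribosomal protein genes carry other names. Of 5 tested, 2 fell and none rose by limma (3 had an unadjusted p under 0.05). Over all genes tested, 6.84% were called lower and 29.7% higher, and 49.5% had an unadjusted p under 0.05. Rpl36al fell from 301, 281 and 313 FPKM to 219, 205 and 210 FPKM, without overlap (-0.50, limma adjusted p = 0.0128, and 0.0648 without adenine 2). Under median-of-ratios rescaling 0 of the 5 rose and 2 fell, and under quantile normalization 1 rose and 0 fell. Rpsa (0.45, limma adjusted p = 0.0535), Gnb2l1 (0.30) and Fau (-0.01) were not called.

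Genes that make, regulate and use ribosomes were read beside the ribosomal proteins. Of 38 ribosome biogenesis factors, 14 rose and 1 fell (39.5%, against 36.5% of all genes), with a median log2 change of 0.32, and under median-of-ratios rescaling 2 rose and 2 fell (5 and 1 under quantile normalization). Eif6, which keeps the large subunit from joining too early, rose from 33.4 to 55.8 FPKM (log2 change 0.72, limma adjusted p = 0.0045), Mybbp1a, a nucleolar protein, rose from 21.1 to 30.6 FPKM (log2 change 0.52, limma adjusted p = 0.0080, and 0.0540 under the rescaling), and Nop10, of the pseudouridylation complex, fell from 60.8 to 38.6 FPKM (-0.64, limma adjusted p = 0.0086). RNA polymerase I and its factors had 3 rises in 12 (25%, against 29.7% higher over all genes). Under the rescaling 1 rose and 3 fell, and under quantile normalization 0 rose and 1 fell. The 3 rises included Taf1c (0.67, limma adjusted p = 0.0091) and Ubtf (0.32, limma adjusted p = 0.0299). For Ubtf the limma adjusted p was 0.0562 with the replicate block and 0.0609 to 0.0937 without any 1 library other than adenine 3. Of 23 genes of growth control, 9 rose (39.1%, against 29.7% higher over all genes). Under the rescaling 5 rose and 2 fell, and under quantile normalization 4 rose and 3 fell. Myc, a transcriptional activator of ribosome synthesis, measured 5.09, 3.58 and 3.59 FPKM on standard and 16.3, 15.3 and 10.9 FPKM on adenine (3.46-fold, limma adjusted p = 0.0049). Sesn2, an inhibitor of mTORC1, increased from 14.6 to 23.5 FPKM (limma adjusted p = 0.0054). Eif6, Nop10, Taf1c, Myc and Sesn2 were also called under median-of-ratios rescaling, and Ubtf was not (limma adjusted p = 0.820).

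Translation genes outside the ribosome whose mRNAs also carry a TOP tract had 5 rises in 14 (35.7%, against 29.7% higher over all genes). Their median log2 change was 0.20, and under median-of-ratios rescaling 1 rose, Hnrnpa1. Under quantile normalization 5 of the 14 rose and 0 fell. Pabpc1, the poly(A) binding protein, went up from 122 to 178 FPKM (log2 change 0.55, limma adjusted p = 0.0100), as did Hnrnpa1, an RNA binding protein, from 74.6 to 131 FPKM (0.78, limma adjusted p = 0.0134, and 0.0522 without adenine 2). Of 25 initiation factors, 4 rose (16%, against 29.7% higher over all genes), whereas under median-of-ratios rescaling none rose and 6 fell. Under quantile normalization 4 rose and 1 fell. The 4 rises of the reported fit included Eif4a1 (0.55, limma adjusted p = 0.0139) and Eif3d (0.45, limma adjusted p = 0.0115). For Eif4a1 the limma adjusted p was 0.0514 to 0.0593 without standard 1, standard 2 or adenine 2. Mitochondrial ribosomal proteins, picked by symbol after the data were seen, had no rise and 21 falls in 77 (27.3%, against 6.84% lower over all genes), with a median log2 change of -0.27. Under median-of-ratios rescaling 53 of them fell and under quantile normalization 37, and none rose under either. In the limma fit 0 of the 77 had a higher value at an unadjusted p under 0.05.

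**Figure D5:**
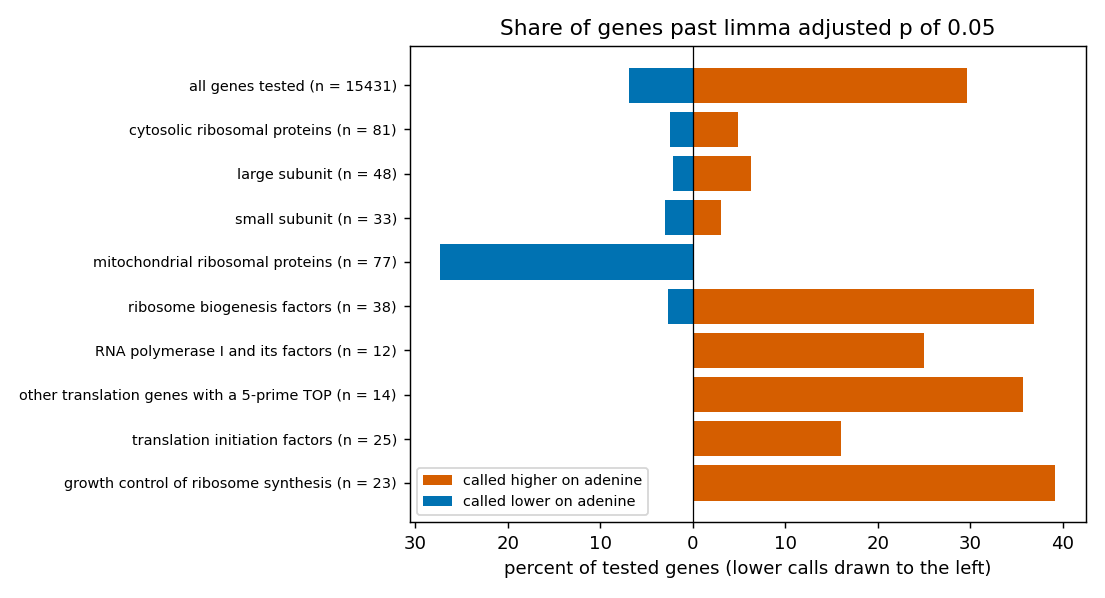
Percent of the tested genes of each list called higher (right) or lower (left) on adenine by limma at an adjusted p of 0.05. Cytosolic ribosomal proteins show 4 higher and 2 lower of 81, mitochondrial ones 21 lower of 77.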

How the data were processed

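RNA of 6 mouse kidney libraries (3 per diet) was sequenced as 100-base paired reads from 1 µg RNA, per the labels' protocols. The authors deposited FPKM values per gene for these libraries. The submitters' processing notes name bcl2fastq 2.0, TopHat, Cufflinks 2.1.1 and the builds mm10 and GRCm38. Annotation and strand setting were not given in the sources used here. Another table's 6 value columns belong to no listed sample and were not used.

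FPKM hold no counts, so log2(FPKM + 1) was tested with limma 3.58.1 (R 4.3.3; moderated variance with a trend, two-sided) over the 15431 genes averaging 0.5 FPKM or more, with Benjamini-Hochberg adjustment and a threshold of 0.05. Log2 changes understate low genes. Depth was estimated from steps of low values, assuming 200-base fragments; 65.4% to 74.1% of these values were within 0.15 of whole fragments. Paralogue shares were tested by exact permutation (scipy 1.17.1). Shared stretches and protein lengths come from GENCODE M21, which holds all 86 members, 53 with the deposited start and end; promoters come from RefSeq.

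Libraries with the same number deviated together (correlations over all genes 0.257, 0.143 and 0.181; other pairs -0.187 to 0.0376), so a fit with the number as a block stands beside each member it changes. No label states a pairing. Other pseudocounts, filters, scalings, variance priors and leaving out each library were tried; scaling to the members and the subset with under 10% shared stretches were added after seeing the data.

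In data simulated on 15209 genes, the fit called 79 of 100 genes changed 2-fold, 96 of 100 changed 4-fold and 12 unchanged genes. The simulated noise was independent between libraries, and few genes were changed. Changes below 2-fold, the range of every tested member but Rpl3l, were not simulated. The members, lists and named genes (all called members, the 8 largest changes each way, role lists, and the leading genes of each other list) were chosen with earlier results of these data known. A few genes are counted but not reported here by name.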

Additional observations from a re-analysis of the deposited data

How the results depend on the processing

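The 4 higher calls among the members became 2 with no filter, 2 with the robust variance prior, 2 with scaling that leaves out the 50 most abundant genes, 1 with median-of-ratios rescaling (also with the replicate block), 11 with quantile normalization, 1 with scaling to the members and 0 among members with under 10% shared stretches. The 2 lower calls became 0 with no filter, 1 at a mean of at least 5 FPKM, 1 with no variance trend, 11 with median-of-ratios rescaling (also with the replicate block), 1 with quantile normalization and 1 with scaling to the members. Over all genes, 36.5% were called in either direction in the reported fit and 21.9% with no filter. The share was 37% with the robust variance prior, 31.9% with the 50 most abundant genes left out of the scaling and 39.3% at a mean of at least 5 FPKM. It was 35.4% with no variance trend and 34.1% with the replicate block and median-of-ratios rescaling. The cause of these changes in calls was not tested. The replicate block alone gave 4 higher and 2 lower, with Rps3a2 gained and Rpl10a and Rps2 lost, and 5957 calls over all genes.

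Leaving out 1 library gave 1 to 8 higher calls (8 without adenine 3), 0 to 2 lower calls, 2119 to 7046 calls over all genes (5637 with all libraries) and 48 to 92 calls over the other translation and marker lists (81 with all libraries). The members' median log2 change of 0.06 became -0.24 under median-of-ratios rescaling with or without the block, and was -0.05 to 0.13 with 1 library left out. The difference in the share of Rpl7l1, -0.35 percentage points, ran from -0.896 to 0.192 and changed sign without standard 3 (0.16) and without adenine 1 (0.19). Of 27 named members that were not called, 12 changed the sign of their log2 change under median-of-ratios rescaling and 4 under quantile normalization. No called member changed direction.

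With 3 libraries per diet, small changes lie below what the test can call, and the exact tests of shares cannot go below 0.10.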

Other observations

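The kinases that phosphorylate eS6 and related rows share the Rps6 prefix but encode no ribosomal protein. Of 10 such rows 9 were tested and 5 rose, against 29.7% higher over all genes, and 2 rose under median-of-ratios rescaling and 2 under quantile normalization. Rps6ka1, which encodes the kinase RSK1, measured 7.01, 8.55 and 6.06 FPKM on standard and 22.5, 17.4 and 11.7 FPKM on adenine, without overlap (log2 change 1.11, limma adjusted p = 0.0165, and 0.0537 to 0.0597 without standard 1, standard 3 or adenine 2). Rps6ka4 had 9.97 FPKM on standard and 18.9 FPKM on adenine (log2 change 0.86, limma adjusted p = 0.0138, and 0.0510 without adenine 2). The main eS6 kinases of the mTOR pathway, Rps6kb1 (0.07, limma adjusted p = 0.572) and Rps6kb2 (0.10, limma adjusted p = 0.568), were not called, and whether their change differs from that of Rps6ka1 was not tested.

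Of 245 rows named as ribosomal protein pseudogenes, 26 were tested, and 5 rose and 1 fell, against 29.7% and 6.84% of all genes. The balance turned with scaling: 0 rose and 3 fell under median-of-ratios rescaling, and 3 rose and 4 fell under quantile normalization. Their summed FPKM was 1178 to 1451 on standard and 1289 to 1697 on adenine, so the ranges overlapped.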
